A study of Homo sapiens with 8 samples.

Results

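The knockdown of LKB1 in U87, an established human glioblastoma cell line, was examined as the difference between 2 libraries of cells given siRNA against LKB1 and 2 libraries of U87 cells given control siRNA. Genes were kept where the deposited normalised read count was 10 or more in at least 2 of these 4 libraries, with 1 row per symbol. This left 13472 genes of the 18787 symbols in the table, measured in 4 of the series' 8 libraries. The other 4 libraries are the same knockdown in T98, a second glioblastoma line, and are used here for the spread between libraries and for tests of a difference between the lines. All cells were grown in DMEM with serum and transfected with Lipofectamine RNAiMAX, a lipid carrier, and total RNA was taken 72 h later. The libraries of each U87 group were run 1 on sequencing lane 2 and 1 on lane 5, by the headers of the table. Lane and replicate are thus the same split of the libraries and cannot be told apart. The word lane below stands for both. Nothing in the labels says whether the duplicates are separate cultures, so the spread behind the p-values may be technical. With a lane term, p-values rest on how far the siRNA changes differ between the lanes, pooled over both lines. They do not then measure the full spread between libraries, from which the difference between lanes has been taken out. The labels name neither the siRNA sequences nor the number of siRNAs in a pool, and U87 is a single line.

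LKB1, the product of STK11, is a serine/threonine kinase that needs 2 partners for activity, a pseudokinase (STRAD) and a scaffold (MO25). It phosphorylates and activates AMPK, the energy sensor that restrains anabolic metabolism and mTORC1, and a family of AMPK-related kinases that includes the salt-inducible kinases (SIK). SIK proteins keep the CRTC coactivators of CREB out of the nucleus, so LKB1 loss is known to release CREB target genes in several cell types. LKB1 is a tumour suppressor in the gut, lung and cervix, where its loss is linked to altered polarity, metabolism and growth control.

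The 4 U87 libraries held between 25234334 and 38031734 reads assigned to genes, recovered from the deposited values. Lanes, and with them the replicates, differed more widely than siRNAs. The difference between lanes had a standard deviation over genes of 0.86 on the log2 scale in control cells and 0.82 in LKB1 siRNA cells, against 0.60 (lane 2) and 0.51 (lane 5) for the difference between siRNAs. The 2 lane differences correlated across genes (Pearson r = 0.862, 13472 genes that share libraries). The siRNA differences of the 2 lanes correlated at r = 0.693, and 10034 genes had the same sign in both lanes. Genes of the mesenchymal glioma programme were abundant in all 4 libraries, with VIM between 127500 and 292300 and CD44 between 53910 and 63020. The astrocyte genes AQP4 and S100B, the neural stem cell factor SOX2 and the oligodendrocyte gene OLIG1 were below 10 in every U87 library, as were the microglial genes PTPRC, AIF1 and CX3CR1 and the haemoglobin gene HBB. Other markers of these cell types were present: the astrocyte genes GJA1 (15962 to 26395) and SLC1A3 (810 to 1541), the macrophage genes CD68 (12020 to 22934) and CSF1R (207 to 813), and OLIG2 and MBP at up to 67.9 and 56.4. In all, 4 of 7 astrocyte, 2 of 6 oligodendrocyte and 3 of 6 microglia and macrophage markers reached 10 in at least 2 of the 4 libraries. CDKN2A, CDKN2B and MTAP, neighbours on 9p21 that are known to be deleted in U87, were below 10 in 4 of 4 libraries. In bulk RNA, fewer cells of a kind and less RNA per cell cannot be told apart.

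At an adjusted p under 0.05, 792 genes were higher with LKB1 siRNA and 906 lower, that is 5.88% and 6.73% of the genes tested (limma-trend on log2(value + 1) with a lane term, Benjamini-Hochberg over 13472 genes, all adjusted p-values below being from this fit unless another is named). The median change over all genes was -0.01 on the log2 scale. Both LKB1 siRNA libraries were above both control libraries for 17.8% of genes and below both for 20.7%. Without the lane term, 4 genes were called higher (CHPF, IL6ST, STEAP3 and LSM14A) and 5 lower (STK11, E2F1, E2F2, NUSAP1 and TTL), and these 9 were all among the calls with it. Leaving out any 1 of the 4 U87 libraries removed every call. In those fits 1 group holds 1 library, and the U87 change rests on the 1 lane that has both siRNAs.

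**Figure D1:**
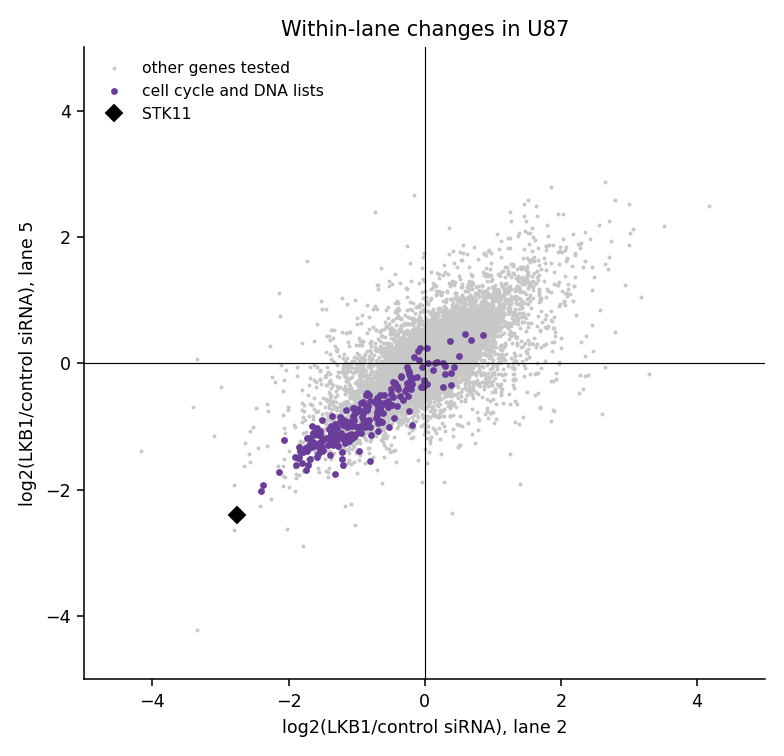
Change in each gene in lane 2 (horizontal) and in lane 5 (vertical), each the log2 ratio of the LKB1 siRNA library to the control library of that lane. Genes of 9 cell cycle and DNA lists (purple) lie in the lower left quadrant for 211 of 233, against 5193 of all 13472 genes. STK11 (black) fell in both lanes.

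The targeted gene was lower in both lanes. STK11 (NM_000455, chr19:1205798-1228434 in hg19, plus strand) was at 2445 and 2041 normalised reads in the control libraries of lanes 2 and 5, and at 361 and 385 with LKB1 siRNA. The groups did not overlap, and the mean with LKB1 siRNA was 16.6% of the control mean (2243 ± 286 against 373 ± 17, SD, n = 2). On the log2 scale STK11 fell by 2.58 (SE 0.20, adjusted p = 0.00170, and 0.0450 without the lane term). It was the only member of the LKB1 complex called. The pseudokinases STRADA and STRADB changed by -0.24 (SE 0.13) and -0.12 (SE 0.16), and the MO25 proteins CAB39 and CAB39L by -0.17 (SE 0.11) and -0.51 (SE 0.20), none past the threshold.

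None of the 6 AMPK subunit genes tested was called. Their changes ran from -0.45 (SE 0.17, adjusted p = 0.127) for the catalytic subunit PRKAA1 to 0.40 (SE 0.19, adjusted p = 0.218) for the other catalytic subunit PRKAA2, with a median of -0.05. PRKAA1 was the 1 subunit whose groups did not overlap, at 3013 and 2664 in control cells and 2432 and 1769 with LKB1 siRNA. The scaffold subunits PRKAB1 and PRKAB2 changed by 0.07 and -0.31, and the nucleotide-binding subunits PRKAG1 and PRKAG2 by 0.03 and -0.12.

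Of 12 AMPK-related kinases tested, 1 rose and 1 fell, near the 5.88% and 6.73% of all genes. SIK1, which is itself transcribed in response to CREB, was at 622 and 1406 in control cells and at 1532 and 2867 with LKB1 siRNA. It was higher within each lane, and rose by 1.16 (SE 0.15, adjusted p = 0.00377, 0.660 without the lane term). MELK, a kinase that is transcribed in dividing cells and does not need LKB1 for its activity, was at 3387 and 3256 in control cells and at 1124 and 1311 with LKB1 siRNA, and fell by 1.45 (SE 0.15, adjusted p = 0.00229). Next to the threshold, BRSK1 changed by 0.72 (SE 0.22, adjusted p = 0.0750), SIK2 by 0.48 (SE 0.16, adjusted p = 0.0932) and NUAK1 by 0.42 (SE 0.15, adjusted p = 0.113), each with both LKB1 siRNA libraries above both controls. SIK3, NUAK2, SNRK and the polarity kinases MARK1, MARK2, MARK3 and MARK4 ranged from -0.33 to 0.10.

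None of the 8 CRTC and CREB genes was called. The coactivators CRTC1, CRTC2 and CRTC3 changed by 0.27, 0.08 and 0.00, CREB1 by -0.31 (SE 0.15) and its relative ATF1 by 0.50 (SE 0.15, adjusted p = 0.0720). Among 30 CREB targets and immediate-early genes, 10 rose and 2 fell, with a median of 0.31 against -0.01 over all genes. Of all genes, 5.88% rose and 6.73% fell. Besides SIK1, the MAP kinase phosphatases DUSP4 and DUSP5 rose. DUSP5 was at 771 and 1255 in control cells and at 1766 and 3027 with LKB1 siRNA, a rise of 1.23 (SE 0.19, adjusted p = 0.00717). DUSP4 rose by 1.33 (SE 0.18, adjusted p = 0.00414). The 2 that fell, CYR61 (-1.12, SE 0.18, adjusted p = 0.00899) and CTGF (-0.69, SE 0.14, adjusted p = 0.0173), encode matricellular proteins and are also targets of YAP and TEAD.

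**Figure D2:**
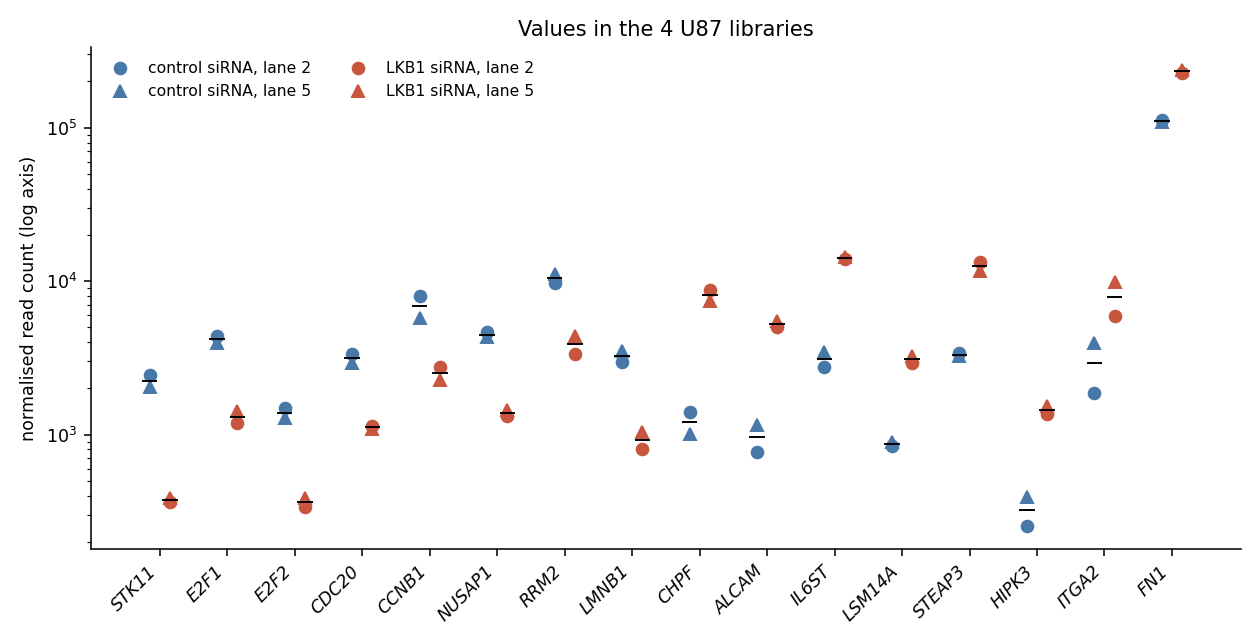
Normalised read count (log axis) of 16 genes in the 4 U87 libraries, control siRNA in blue and LKB1 siRNA in red, circles for lane 2 and triangles for lane 5, with the group mean as a line. STK11 is at 361 and 385 with LKB1 siRNA against 2445 and 2041, and in each of the 16 genes the 2 groups do not overlap.

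Genes of the cell division cycle were lower with LKB1 siRNA. Of 233 tested genes in 9 lists on transcription, replication, repair and mitosis, 170 fell (73.0%) and 2 rose. The shares over all genes were 6.73% and 5.88%. Their median change was -0.91 (-0.95 in lane 2 and -0.91 in lane 5), and 211 were below 0 in both lanes. Over all 13472 genes tested, 5193 were below 0 in both lanes. The count was 173 lower with edgeR and a lane term, and 3 lower without the lane term.

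The E2F factors switch on the genes of S phase once RB proteins release them, and MYBL2 and FOXM1 carry the programme on to mitosis. Among 19 E2F and RB genes, 8 fell and 0 rose, with a median of -0.50. E2F1 was at 4404 and 3964 in control cells and at 1180 and 1426 with LKB1 siRNA, 31.1% of the control mean. E2F2 was at 1489 and 1272 in control cells and at 337 and 386 with LKB1 siRNA, 26.2% of the control mean. The groups of both genes lay far apart. E2F1 fell by 1.69 (SE 0.14, adjusted p = 0.00170), E2F2 fell by 1.93 (SE 0.16, adjusted p = 0.00170) and MYBL2 fell by 1.43 (SE 0.12, adjusted p = 0.00170). The first 2 passed also without the lane term, each at an adjusted p of 0.0450.

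In a separate list of 13 G1 cyclins, CDKs and their inhibitors, 6 fell and 0 rose. The phosphatase CDC25A, which activates CDK2, fell by 1.42 (SE 0.12, adjusted p = 0.00170), cyclin E2 (CCNE2) fell by 1.42 (SE 0.20, adjusted p = 0.00575) and CDK6 fell by 1.26 (SE 0.18, adjusted p = 0.00542). CDKN1A, the p21 inhibitor, was at 23560 and 21260 in control cells and at 32070 and 25740 with LKB1 siRNA. Both LKB1 siRNA libraries were above both controls, but the change of 0.36 (SE 0.17, adjusted p = 0.219) did not pass.

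Replication genes fell across the licensing and fork machinery. Of 24 licensing and firing genes 20 fell, with a median of -0.90, among them geminin (GMNN, -1.28, SE 0.14, adjusted p = 0.00258) and its partner CDT1 (-1.44, SE 0.16, adjusted p = 0.00267). The helicase subunit MCM7 was at 6550 and 7139 in control cells and at 2841 and 3628 with LKB1 siRNA, and fell by 1.09 (SE 0.12, adjusted p = 0.00266). Of 30 fork genes 24 fell and 2 rose, with a median of -0.79. The histone chaperone ASF1B fell by 1.5, the clamp loader subunit RFC3 fell by 1.16 and the polymerase alpha subunit POLA2 fell by 1.01. The maintenance methyltransferase DNMT1 and the polymerase subunit POLD3 were the 2 that rose, by 0.65 (SE 0.14, adjusted p = 0.0221) and 0.52 (SE 0.14, adjusted p = 0.0487).

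Nucleotide synthesis was split. Of 16 genes 6 fell and 0 rose, and the fallen ones named here supply deoxynucleotides: the ribonucleotide reductase subunit RRM2 and thymidylate synthase (TYMS). RRM2 was at 9776 and 11200 in control cells and at 3362 and 4397 with LKB1 siRNA, 37.0% of the control mean, and fell by 1.44 (SE 0.12, adjusted p = 0.00170). Of 29 genes of homologous recombination, the Fanconi pathway and checkpoints, 16 fell, with a median of -0.68. The nuclease EXO1 fell by 1.27 and the Fanconi gene FANCI fell by 0.99.

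Mitotic genes made up the lowest lists. Of 31 mitotic kinase, cyclin and anaphase genes, 29 fell and 0 rose, with a median of -1.33. CDC20, the activator of the anaphase-promoting complex, was at 3366 and 2946 in control cells and at 1136 and 1091 with LKB1 siRNA. It fell by 1.5 (SE 0.12, adjusted p = 0.00170). Cyclin B1 (CCNB1) was at 7989 and 5718 in control cells and at 2753 and 2271 with LKB1 siRNA, and fell by 1.43 (SE 0.12, adjusted p = 0.00170). TPX2, the activator of Aurora A, fell by 1.45. The widely used division genes CDK1, CCNA2 and PLK1, which the naming rule did not select and which were chosen after their values were seen, fell as well (-1.43, -1.52 and -1.25).

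Of 28 mitotic kinesin, spindle and cytokinesis genes, 25 fell, and all 28 had both LKB1 siRNA libraries below both controls. The share below both controls over all genes was 20.7%. NUSAP1, which bundles spindle microtubules, was at 4649 and 4295 in control cells and at 1327 and 1445 with LKB1 siRNA. Its fall of 1.69 (SE 0.13, adjusted p = 0.00170) passed without the lane term also (adjusted p = 0.0450). The midbody protein CEP55 fell by 1.72 and the spindle protein TACC3 fell by 1.39. Of 35 kinetochore and centromere genes, 30 fell, with a median of -1.05. The NDC80 complex members NUF2 (-1.75) and NDC80 (-1.41), and the centromere histone chaperone HJURP (-1.66), were among them.

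Of 21 condensin and cohesin genes, 12 fell, with a median of -0.79. The cohesin acetyltransferase ESCO2 fell by 1.53, the cohesin-protecting sororin (CDCA5) fell by 1.18 and topoisomerase TOP2A fell by 1.29. MKI67, the Ki-67 proliferation antigen in the same list, was at 3443 and 12100 in control cells and at 1981 and 4141 with LKB1 siRNA. Its change of -1.17 (SE 0.35, adjusted p = 0.0693) did not pass and its groups overlapped, since the control library of lane 2 was below the LKB1 siRNA library of lane 5. Among 20 histone genes 5 fell and 0 rose, and the 3 with the smallest adjusted p, H2AFV (-0.99), H2AFX (-1.20) and H2AFZ (-0.99), are variants with polyadenylated transcripts. The nuclear lamina gene LMNB1, among the falls of smallest adjusted p, was at 2987 and 3489 in control cells and at 808 and 1040 with LKB1 siRNA, and fell by 1.82 (SE 0.13, adjusted p = 0.00170).

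**Figure D3:**
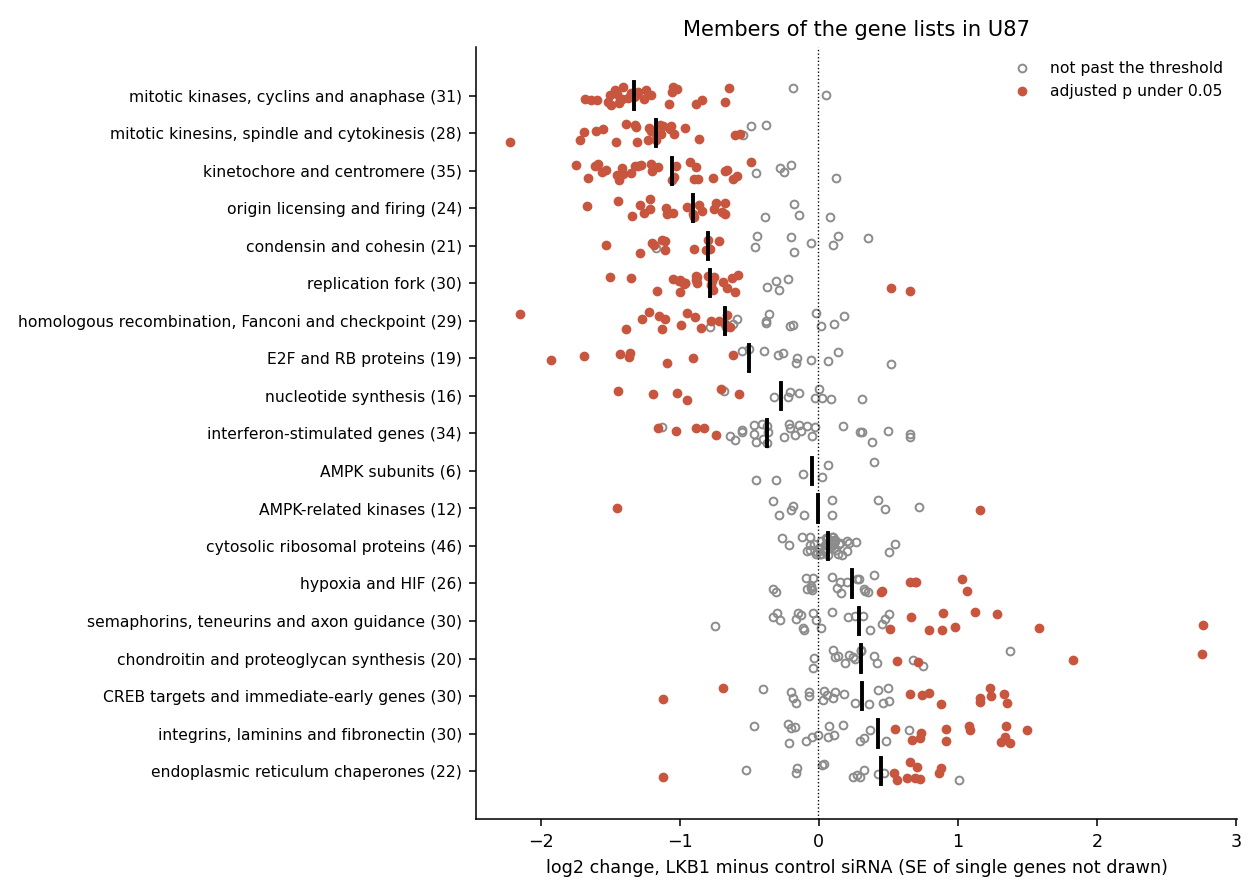
Log2 change of each tested member (points) of 19 gene lists in U87, filled where the adjusted p is under 0.05, with the list median as a bar and the median of all genes as a dotted line. The number of genes tested is in brackets. The medians of the division lists lie left of 0, down to -1.33, and the ribosomal proteins sit around 0.07.

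These falls were tested against T98, whose own control and LKB1 siRNA libraries are separate from those of U87. STK11 fell there too (by 2.17), and the change of STK11 was not called different between the lines. Over all genes, 16 had a higher change in U87 than in T98 and 60 a lower one (0.119% and 0.445% of the genes tested, difference of the 2 changes in the same fit). Of the 233 genes in the division lists, 30 were lower in U87 than in T98 and 0 higher, and their median change in T98 was -0.13. In T98 16 of them were called lower and 7 higher. The mitotic kinase and cyclin list alone held 13 of the 30.

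E2F2 changed by 0.09 in T98, so that the difference between the lines was -2.02 (SE 0.23, adjusted p = 0.0301). For E2F1 the change in T98 was 0.04 and the difference -1.73 (SE 0.20, adjusted p = 0.0301). CDC20 changed by 0.09 in T98, a difference of -1.59 (adjusted p = 0.0291), and RRM2 by -0.03, a difference of -1.41 (adjusted p = 0.0301). None of these differences was called without the lane term or after leaving out any 1 U87 library. Lane 5 held U87 libraries and lane 4 held T98 libraries, so the second lane and the line cannot be told apart in this contrast.

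**Figure D4:**
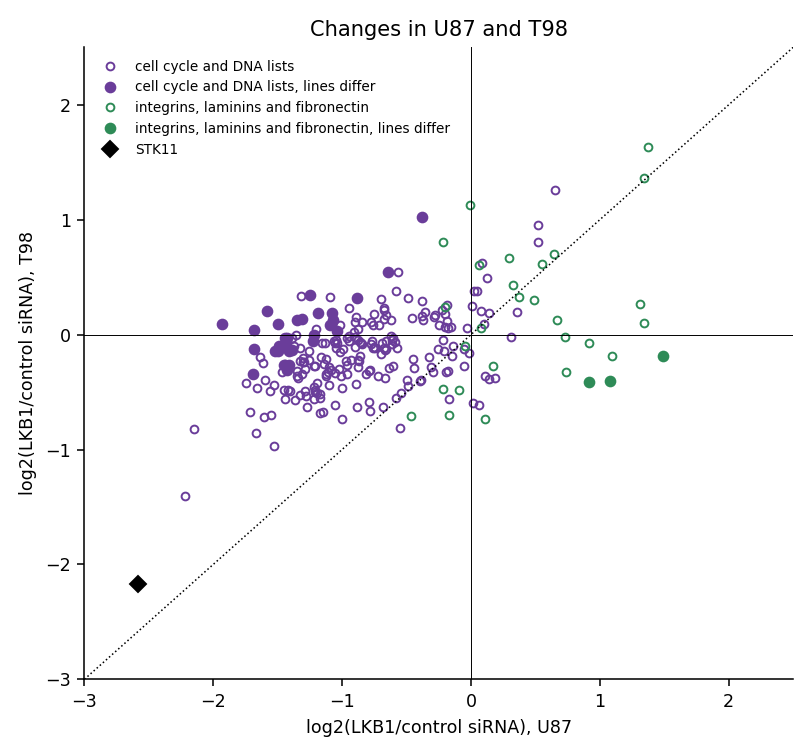
Log2 change in U87 (horizontal) and T98 (vertical) of the genes in the 9 cell cycle and DNA lists (purple) and of integrins, laminins and fibronectin (green). Filled points differ between the lines at an adjusted p under 0.05, and the dotted line marks equal change. STK11 (black) fell in both lines, by 2.58 and 2.17, while the division genes have a median of -0.91 in U87 and -0.13 in T98.

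The promoters of the division genes were read for 3 known motifs, since genes that move together often share them: the E2F site (TTTCGCGC, TTTGGCGC, TTTCCCGC or TTTGCCGC), the CHR element of late cell cycle genes (TTTGAA or TTCGAA) and the CCAAT box, on either strand, in the 250 bases before to 50 after the start (RefSeq, GRCh38.p14). A promoter sequence was matched for 10893 of the 13472 genes. An E2F site was in 5.24% of all promoters, 3.66% of those of risen genes and 10.6% of those of fallen genes. A CHR was in 11.7% of all, 10.2% of risen and 23.4% of fallen genes, and a CCAAT box in 36.8%, 31.7% and 47.9%. Of the 140 fallen division genes with a sequence, 24.3% held an E2F site, 40.7% a CHR and 57.1% a CCAAT box. These shares were close to those of the 196 genes of the same lists with a sequence, fallen or not (21.4%, 36.7% and 57.1%). A match is a description of the letters and not of binding.

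Some promoters are shown 5′ to 3′, with every match to the 3 motifs in capitals to show its place. Holding an E2F site or a CHR was a condition of the choice, and the fallen MYBL2, CCNB1 and RRM2 held neither. Shown are the promoters of the 4 fallen division genes with the smallest p among those that met this condition. They lie at chr15:41332631-41332930, plus strand (NUSAP1), chr1:43358731-43359030, plus strand (CDC20), chr10:93496362-93496661, plus strand (CEP55) and chr20:33686336-33686635, minus strand (E2F1).
NUSAP1: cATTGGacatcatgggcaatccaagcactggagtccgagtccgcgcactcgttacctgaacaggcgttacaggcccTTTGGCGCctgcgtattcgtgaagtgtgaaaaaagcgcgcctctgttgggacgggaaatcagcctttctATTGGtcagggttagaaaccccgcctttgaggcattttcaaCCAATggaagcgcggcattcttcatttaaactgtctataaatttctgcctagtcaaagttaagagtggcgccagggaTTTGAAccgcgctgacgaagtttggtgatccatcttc
CDC20: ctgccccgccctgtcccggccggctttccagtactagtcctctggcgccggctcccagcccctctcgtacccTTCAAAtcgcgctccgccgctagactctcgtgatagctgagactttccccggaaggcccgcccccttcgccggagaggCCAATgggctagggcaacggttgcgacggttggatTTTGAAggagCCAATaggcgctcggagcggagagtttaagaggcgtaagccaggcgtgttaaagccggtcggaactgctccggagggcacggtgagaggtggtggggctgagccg
CEP55: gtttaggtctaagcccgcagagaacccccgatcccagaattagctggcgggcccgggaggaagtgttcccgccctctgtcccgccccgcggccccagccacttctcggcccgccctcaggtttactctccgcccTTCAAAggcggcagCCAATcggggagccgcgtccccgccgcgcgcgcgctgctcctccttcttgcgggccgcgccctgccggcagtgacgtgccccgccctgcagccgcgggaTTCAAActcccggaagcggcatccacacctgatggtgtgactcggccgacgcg
E2F1: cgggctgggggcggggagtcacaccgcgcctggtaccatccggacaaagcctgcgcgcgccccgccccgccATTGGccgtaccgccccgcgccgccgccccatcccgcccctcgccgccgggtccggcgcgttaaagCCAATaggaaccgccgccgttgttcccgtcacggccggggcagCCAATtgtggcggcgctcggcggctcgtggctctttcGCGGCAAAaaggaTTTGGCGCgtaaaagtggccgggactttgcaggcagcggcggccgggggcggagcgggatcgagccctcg
NUSAP1 holds 1 E2F site, 1 CHR and 3 CCAAT boxes, CDC20 holds 2 CHR and 2 CCAAT boxes, and CEP55 holds 2 CHR and 1 CCAAT box. E2F1, which is known to be driven by E2F factors itself, holds 2 E2F sites side by side near the start and 3 CCAAT boxes.

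The largest rises were of another kind. Among called genes with a group mean of at least 200 and groups that did not overlap, the 12 that rose most were ODZ2, CHPF, CXCL14, ALCAM, IL6ST, HIPK3, VGF, PANK3, ACPL2, MEST, HOMER1 and RASD2, by 2.76 down to 2.0. CHPF, which extends chondroitin chains (chr2:220403669-220408487 in hg19), was at 1397 and 1013 in control cells and at 8729 and 7429 with LKB1 siRNA, 6.71 times the control mean. The adhesion molecule ALCAM was at 764 and 1154 in control cells and at 4988 and 5515 with LKB1 siRNA, a rise of 2.48 (SE 0.14, adjusted p = 0.00170). IL6ST, the gp130 receptor subunit, was at 2751 and 3438 in control cells and at 14020 and 14460 with LKB1 siRNA. In each of these the lowest LKB1 siRNA library was well above the highest control library.

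HIPK3, a homeodomain-interacting kinase, was at 254 and 392 in control cells and at 1369 and 1539 with LKB1 siRNA. PANK3, of coenzyme A synthesis, was at 278 and 411 in control cells and at 1813 and 1318 with LKB1 siRNA. The teneurin ODZ2 was at 218 and 222 in control cells and at 1749 and 1282 with LKB1 siRNA. CXCL14, a chemokine, differed widely between lanes, with 13.9 and 95.7 in control cells against 102 and 582, so its fold rests on 13 reads in the lane 2 control. SLC41A1, LSM14A and NT5DC2 joined ALCAM, CHPF and HIPK3 among the 6 rises with the smallest adjusted p. The magnesium transporter SLC41A1 rose by 1.93, the processing-body protein LSM14A by 1.82 and NT5DC2 by 1.72 (adjusted p = 0.00170 each).

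Of the 12 largest rises, 7 carry the heptamer GCAGTAC in their 3′ UTR, and so do 5 of the 6 rises with the smallest adjusted p, whereas 0 of the 12 largest falls do. This heptamer, and GAAGGAA for falls, were named in earlier work on these data, in part from these libraries, so the shares here are a description. A 3′ UTR was read for 12873 genes from the GENCODE v29 transcript of the deposited RefSeq accession. GCAGTAC was in 4.26% of all 3′ UTRs, in 20.3% of those of risen genes (156 of 767) and in 2.30% of those of fallen genes (20 of 869). Among all 16384 heptamers it had the largest excess of the share in risen genes over the share in all genes.

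The first such site in 6 of these genes is shown 5′ to 3′ with 10 bases on either side, in the DNA letters of the transcript, with the heptamer in capitals, because the genes share it while the bases around it differ.
CHPF: acgtatttatGCAGTACagtctgcctg
ALCAM: aatttatcaaGCAGTACatgaaagtgt
IL6ST: tacaacttcaGCAGTACctataaagta
HIPK3: tttttacattGCAGTACttgttttgct
LSM14A: ttaaactaaaGCAGTACttcagtggga
SLC41A1: cctgagataaGCAGTACaagtaggttt
Read from the other side, 28.4% of the 549 genes with the heptamer rose and 3.64% fell, against 4.96% and 6.89% of the 12324 genes without it. Their median change was 0.34 in U87 and 0.18 in T98, against -0.01 and 0.01 without it. The 3′ UTRs of risen genes were longer (median 1471 bases) than those of all genes (916 bases). In each class of length, a higher share of the genes with the heptamer rose. Up to 504 bases the share was 39.3% (11 of 28 genes) against 3.63%. From there to 1613 bases it was 35.6% against 4.85%, and above that 26.0% against 6.54%. These shares cannot show what part length has, since the heptamer was named in part from these libraries. ODZ2, VGF, MEST, HOMER1 and RASD2 rose without the heptamer.

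GAAGGAA was in 18.0% of all 3′ UTRs, 28.9% of those of fallen genes and 20.3% of those of risen genes, rank 3 of the 16384 heptamers by its excess in fallen genes. Of the genes holding it 10.8% fell and 6.74% rose, against 5.85% and 5.79% of the others. Small interfering RNAs and microRNAs are both known to lower transcripts whose 3′ UTR pairs with the seed of a strand. The seeds that would pair with these heptamers are GUACUGC and UUCCUUC. No mature human microRNA of the 2370 in the RefSeq table has either. That search was for exact seeds of listed microRNAs only, and it tells nothing of the siRNAs. The siRNA sequences were not used here, and whether either siRNA or any microRNA takes part in these shares was not tested. Of 162 fallen division genes with a 3′ UTR, 13.6% held GAAGGAA, and their 3′ UTRs were shorter (median 666 bases) than those of all genes. This share was close to the 12.9% of the 224 genes of the same lists with a 3′ UTR, fallen or not. By list, 4 of 8 fallen E2F and RB genes (E2F1, LIN9, MYBL1 and RBL1) and 5 of 20 fallen licensing genes held GAAGGAA, against 1 of 29 fallen mitotic kinase and cyclin genes. Between these were fork genes (2 of 24), kinesin and spindle genes (2 of 25) and kinetochore genes (4 of 30). So were recombination genes (1 of 16), condensin and cohesin genes (2 of 12) and nucleotide synthesis genes (1 of 6). Members that did not fall were not counted by list. The share over all fallen genes was 28.9%, and the lists were not matched for 3′ UTR length.

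**Figure D5:**
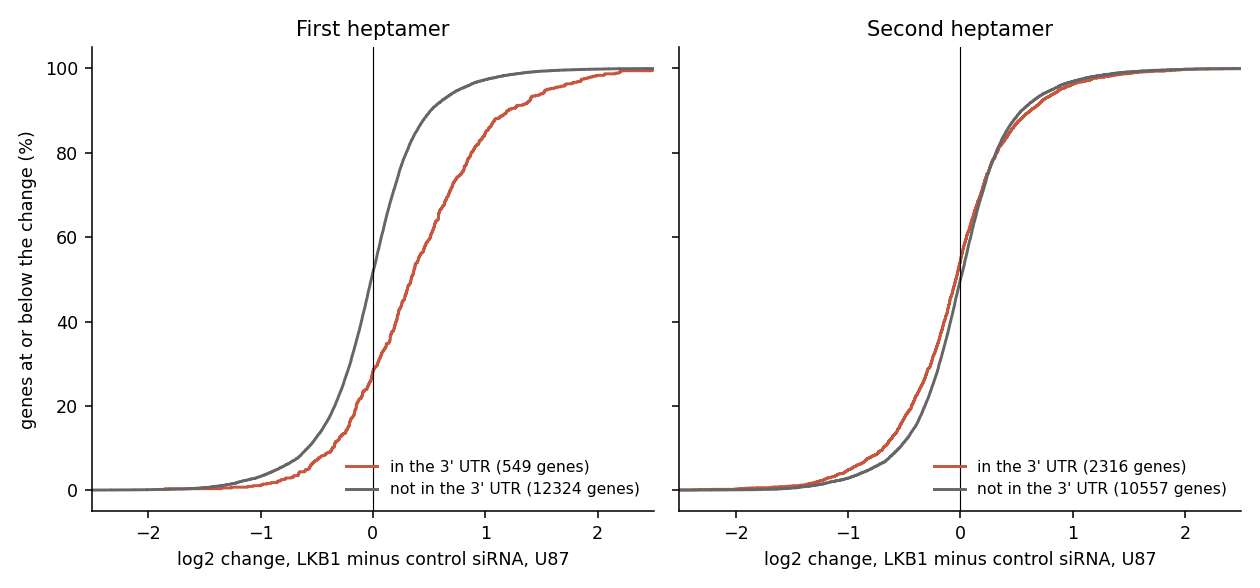
Share of genes at or below a given log2 change in U87 for genes with (red) and without (grey) a heptamer in the 3′ UTR, GCAGTAC on the left and GAAGGAA on the right. The 549 genes with the first heptamer are shifted to the right, with a median of 0.34 against -0.01, while the 2316 genes with the second have a median of -0.04 against 0.00.

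STK11 was 1 of the 12 largest falls by the same rule. The others were SCML2, ZNF367, HMMR, GXYLT1, TMEM71, CHN1, CXCL5, VCL, CCDC99, TTL and E2F2, and 7 of the 12 genes hold GAAGGAA. The Polycomb protein SCML2 was at 533 and 483 in control cells and at 75.6 and 77.1 with LKB1 siRNA, 15% of the control mean, which was a lower share than that of STK11. TTL, the tubulin tyrosine ligase, was at 7330 and 5323 in control cells and at 1728 and 1538 with LKB1 siRNA, and passed without the lane term also (adjusted p = 0.0487). HMMR, a hyaluronan receptor that also acts at the spindle, was at 3681 and 3251 in control cells and at 692 and 796 with LKB1 siRNA. GXYLT1, a xylosyltransferase that acts on Notch, fell by 2.21 and the neutrophil chemokine CXCL5 fell by 2.01. In T98 the changes were -2.78 for SCML2, -1.73 for TTL, -1.40 for HMMR, -1.70 for GXYLT1 and -0.19 for CXCL5.

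Cell-matrix lists held more rises than falls. Counts in these and all later lists are read against the 5.88% of all genes that rose and the 6.73% that fell. Of 30 integrin, laminin, fibronectin and related matrix genes, 13 rose and 0 fell, with a median of 0.43, and NID1 alone of the 13 holds GCAGTAC. The collagen receptor subunit ITGA2 was at 1873 and 3936 in control cells and at 5940 and 9852 with LKB1 siRNA, a rise of 1.49 (SE 0.18, adjusted p = 0.00342). The laminin receptor subunit ITGA6 rose by 1.31. The laminin chain LAMA4 rose by 0.92 (SE 0.12, adjusted p = 0.00363) with groups that overlapped, since lane 2 held 4606 and 8479 and lane 5 held 546 and 1057.

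Fibronectin and tenascin-C, members of this list, are described because they were also among the 8 chosen glioma and mesenchymal markers. Those markers did not all rise. VIM was at 292296 and 158047 in control cells and lower, at 215777 and 127524, with LKB1 siRNA. SOX2 was near 0, and CD44, NES, SPARC and CHI3L1 were higher within each lane. FN1 was at 111700 and 108100 in control cells and at 228100 and 237000 with LKB1 siRNA, 2.12 times the control mean (adjusted p = 0.00411). TNC was at 31902 and 42338 in control cells and at 103550 and 83522 with LKB1 siRNA, 2.52 times the control mean (adjusted p = 0.00827). In T98, FN1 changed by -0.40, ITGA2 by -0.19 and LAMA4 by -0.41, and the lines differed for all 3 (by 1.49, 1.68 and 1.33, adjusted p = 0.0403, 0.0473 and 0.0334), while TNC changed by 1.36 there.

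Inside the cell, 3 of 21 focal adhesion adaptors rose and 2 fell. Talin (TLN1) was at 6491 and 11800 in control cells and at 29030 and 34350 with LKB1 siRNA, a rise of 1.85 (SE 0.16, adjusted p = 0.00170). Vinculin (VCL), which binds talin, was at 16400 and 17410 in control cells and at 4120 and 4470 with LKB1 siRNA, and fell by 1.98 (SE 0.34, adjusted p = 0.0106). The kindlin FERMT2, another partner of talin-bound integrins, fell by 1.80. TLN1 holds GCAGTAC, and VCL and FERMT2 hold GAAGGAA. ZYX and PARVB rose by 0.58 and 0.53.

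Of 21 collagens 2 rose (COL5A1 and COL6A1, by 0.54 and 0.53) and 1 fell (COL4A1, by 0.93), near the shares over all genes. With edgeR and a lane term 6 collagens rose and 0 fell. Of 29 matrix proteases and inhibitors 4 rose and 0 fell, among them ADAMTS9, ADAMTS5 and ADAMTS12 (by 1.32, 0.85 and 0.80). ADAMTS9 was at 6.54 and 122 in control cells, so its lane 2 ratio rests on few reads. Of 20 genes of chondroitin and proteoglycan synthesis 4 rose and 0 fell, with a median of 0.30. After CHPF these were led by CSGALNACT1, which starts chondroitin chains, at 565 and 324 in control cells and at 1952 and 1181 with LKB1 siRNA (a rise of 1.83), and by the epimerase DSE (0.71).

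Guidance and adhesion genes rose in part. Of 30 semaphorins, teneurins and other axon guidance genes 10 rose and 0 fell (5.88% and 6.73% over all genes), with a median of 0.29. The receptor ROBO1 was at 1895 and 2462 in control cells and at 5484 and 5026 with LKB1 siRNA (a rise of 1.28), and the plexin PLXNB2 rose by 0.79. Of 32 adhesion molecules and cadherins 5 rose and 0 fell, with ALCAM first, CDH4 at 2.34 and CELSR2 at 1.01. CDH4 was at 9.72 and 229 in control cells and at 70.3 and 884 with LKB1 siRNA, so its groups overlapped between lanes. Of 14 cell polarity genes, 1 rose (DLG3, by 0.97), near the share over all genes, and 0 fell. SNAP25, a synaptic vesicle fusion protein and the most abundant of 6 neuron markers, was at 778 and 577 in control cells and at 2386 and 2226 with LKB1 siRNA. The summed level of the 6 neuron markers, 1177 and 1007 against 2988 and 2737, was mostly SNAP25. SYT1 was at 117.2 and 125.1 against 127.5 and 150.9, and GAD1 at 262.9 and 291.2 against 441.2 and 350.6. SLC17A7 reached 28.2 at most. RBFOX3 and NEFL were under 10 in all 4 libraries, and RBFOX3 was lower with LKB1 siRNA. The part of these markers in the rise of guidance genes was not tested.

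Cytokine and interferon lists are given side by side, with no test between them. In the interleukin-6 family 6 of 16 genes rose and 0 fell. Besides IL6ST these included the ligands LIF (3721 and 10980 in control cells, 8038 and 19870 with LKB1 siRNA, a rise of 0.98) and IL11 (321 and 529 against 1235 and 1257, a rise of 1.59). LIF overlapped between lanes. Of 25 NF-kB factors and cytokines, CCL2 rose (by 0.98) and TNFAIP2 fell (-1.49). Of 34 interferon-stimulated genes 0 rose and 5 fell, with a median of -0.37, among them OAS3 (-0.88), MX1 (-1.03) and DDX60 (-1.16). Of 15 genes of MHC class I presentation only PSMB10 was called, near the share over all genes, and it fell by 0.74.

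In the TGF-beta and BMP list 5 of 31 genes rose and 2 fell. The receptor TGFBR1 was at 3131 and 3669 in control cells and at 8690 and 8794 with LKB1 siRNA, a rise of 1.37 (SE 0.13, adjusted p = 0.00170), the ligand BMP2 rose by 1.33 and the effector SMAD2 by 0.90. The BMP target ID2 fell by 1.33 and SMAD3 fell by 0.63. Of 28 Wnt genes 6 rose and 0 fell, among them the receptor FZD8 (1.01) and the secreted DKK3 (0.77). The secreted SFRP1, a low gene counted among the 6, was at 3.19 and 4.78 against 15.7 and 10.1. SFRP1 passed the filter of 10 only through its LKB1 siRNA libraries, so the filter favoured its rise (1.46) and no weight is put on it. In the Notch list 1 of 14 rose, near the share over all genes: the transcription factor RBPJ (1.18). Of 21 YAP and TEAD genes 2 rose (TGFB2 and TEAD1) and 4 fell, CYR61, AJUBA and CTGF among them.

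Of 33 receptor tyrosine kinases and ligands 4 rose and 1 fell. EPHB2 rose by 0.90 and PDGFRB by 0.61, the ligand HGF by 1.54 (359 and 240 in control cells, 855 and 855 with LKB1 siRNA), and TYRO3 fell by 0.66. Among 19 mesenchymal transcription factors FOXC2 (1.85) and FOXC1 (0.78) rose and CEBPD fell (-1.17, groups overlapping). Among 16 glial and glioma stem cell factors tested, SOX9 rose (0.69) and 0 fell.

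Stress and death lists are read against the 5.88% of all genes that rose and the 6.73% that fell. Of 25 p53 targets 6 rose and 1 fell, with a median of 0.14: TP53INP1, SESN1 and ZMAT3 rose by 1.09, 1.00 and 0.64 and GADD45A fell by 0.56. Of 21 apoptosis regulators 1 rose, the BH3-only gene BBC3 (0.76), and 1 fell. Of 22 endoplasmic reticulum chaperones and sensors 9 rose and 1 fell, with a median of 0.45. BiP (HSPA5) was at 47330 and 70180 in control cells and at 99950 and 110200 with LKB1 siRNA, a rise of 0.86 (SE 0.15, adjusted p = 0.0102). HYOU1 rose by 0.88 and PDIA4 by 0.73, and SEL1L, of the degradation pathway, fell by 1.12. The list median in T98 was 0.44. Of 16 cytosolic heat shock genes 2 rose, HSPA1A and HSPA1B (0.59 and 0.57), near-identical copies whose reads may not be told apart.

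The metabolic lists, which cover processes that AMPK is known to act on, are read against the same shares of all genes. In the mTOR list 4 of 21 genes rose (SESN1, RPTOR and AKT1S1 among them, by 1.00, 0.62 and 0.59) and 1 fell (RHEB, by 0.67, groups overlapping). Of 25 glycolysis genes 3 rose, PFKFB4, SLC16A1 and ENO2, by 0.65 down to 0.47, and 0 fell. Of 26 hypoxia and HIF genes 7 rose and 0 fell, with a median of 0.24. Lysyl oxidase (LOX) was at 25840 and 37160 in control cells and at 51850 and 81210 with LKB1 siRNA, a rise of 1.07, and CA12 and P4HA2 rose by 0.70 and 0.66.

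Of 31 sterol and fatty acid genes 4 rose and 3 fell. ELOVL6, STARD4 and MSMO1 rose by 0.81, 0.90 and 0.60, and HMGCS1 (-1.10), INSIG1 (-0.64) and SC5DL (-0.64) fell. Among 18 genes of fatty acid oxidation and mitochondrial biogenesis, PPARGC1B rose (1.17). Among 42 respiratory chain subunits ATP5C1 and NDUFA8 fell (-0.67 and -0.63) and 0 rose. Of 29 ATF4 and amino acid genes GDF15 rose (0.85) and 0 fell, with groups that overlapped, at 861 and 11450 in control cells and 1843 and 17310 with LKB1 siRNA. Of 25 NRF2 targets 1 rose and 4 fell. The one that rose was haem oxygenase HMOX1, from 3884 and 5900 to 10210 and 17060 (1.46), and NQO1 (-0.91), AKR1B10 (-0.64) and AKR1C2 (-0.52) were among those that fell.

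Of 40 lysosome and autophagy genes 4 rose and 0 fell, among them LAMP2 (0.84), CTSZ (1.03) and NPC1 (0.52). None of 46 cytosolic ribosomal proteins was called, with changes between -0.27 and 0.55, while 2 of 33 ribosome biogenesis genes rose (WDR43 and POLR1A). Of 14 iron genes 3 rose and 1 fell. STEAP3, an endosomal iron reductase, was at 3386 and 3251 in control cells and at 13410 and 11590 with LKB1 siRNA (a rise of 1.91, adjusted p = 0.0450 without the lane term), SLC25A37 rose by 0.83 and NCOA4 fell by 0.48. In the RNA interference list 5 of 19 rose and 2 fell. LSM14A was at 845 and 897 in control cells and at 2920 and 3245 with LKB1 siRNA, the Argonaute EIF2C4 rose by 1.13 and TNRC6A by 0.81, and DICER1, which makes microRNAs, fell by 0.97 (2867 and 3628 against 1670 and 1633), as did DCP2 (-0.56).

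Across the 52 lists, 1200 of 1285 listed symbols were tested, 60 were below the filter and 25 were not used here. Against 20.3% of all risen genes and 4.26% of all genes, GCAGTAC was held by 1 of 13 risen genes in the integrin list, 2 of 9 among the chaperones, 2 of 10 among the guidance genes, 0 of 10 among CREB targets and 0 of 6 among p53 targets. It was held by 2 of 5 risen genes in the TGF-beta and BMP list, 2 of 5 in the RNA interference list, 1 of 3 focal adhesion adaptors, 1 of 2 collagens and 1 of 2 YAP and TEAD genes. Both risen fork genes, DNMT1 and POLD3, held it.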

How the data were processed

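RNA-seq libraries were made with TruSeq RNA V2, a kit that does not mark strand, per the labels' protocols. TopHat2 2.0.8b, edgeR and the build hg19 are named, per the submitters' processing notes. The deposited table holds 1 normalised read count (signal) per gene and library. The values are those of edgeR's equalised library sizes: inverting that step at a common dispersion of 0.06803 returned whole numbers (tolerance 0.05 read) for 100% of the values, so that edgeR and DESeq2 could be run. The annotation is not given in the sources used here, and genes that share sequence may share reads.

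Genes with a value of 10 or more in at least 2 of the 4 U87 libraries were tested with limma 3.58.1 (trend) in R 4.3.3 on log2(value + 1) in all 8 libraries, with group means and a lane term within each line (2 residual degrees of freedom), two-sided, with Benjamini-Hochberg adjustment over 13472 genes and a threshold of 0.05. Fold changes on this scale understate those of low genes. The lane term rests on the correlation of lane differences given in the report. Since lane is also the replicate, the term takes up any difference between replicates, whether or not it comes from sequencing. Alternatives were no lane term, the U87 libraries alone, other pseudocounts, filters and scalings, no trend, edgeR 4.0.16, DESeq2 1.42.0 and each library left out. The fit was also run on simulated data. There the lane difference was the same in control and LKB1 siRNA libraries, so the simulation cannot show whether the lane term suits these data. Named genes are the targeted gene and its kinase lists, the 12 largest changes in each direction with a group mean of 200 or more, the 6 smallest adjusted p in each direction and up to 3 per list and direction. The genes, the 52 lists and the heptamers were chosen with earlier results of these data known. A few genes that the rule names are not reported here. Of the listed symbols 25 are not analysed here, and 20 symbols in the table had been turned into dates.

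Promoters come from RefSeq (GRCh38.p14) and 3′ UTRs from GENCODE v29 (GRCh38), matched by accession or symbol, and gene coordinates are those of the table (hg19).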

Additional observations from a re-analysis of the deposited data

Results flagged for a closer look

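Among the genes named above, the change with LKB1 siRNA differed between U87 and T98 in 22, by the difference of the 2 changes in the same fit (adjusted p under 0.05). It was lower in U87 for the transcription factors E2F2 (-2.02), E2F1 (-1.73) and MYBL2 (-1.12), for PLK1 (-1.59), CDC20 (-1.59), CDK1 (-1.40), CCNA2 (-1.38), CCNB1 (-1.34), TPX2 (-1.18) and CDC25A (-1.13), and for the spindle and kinetochore genes NUSAP1 (-1.35), NDC80 (-1.27) and TACC3 (-1.26). It was also lower for H2AFX (-1.58), RRM2 (-1.41), CDCA5 (-1.37), ASF1B (-1.36), LMNB1 (-1.33) and MCM7 (-1.18). It was higher in U87 for ITGA2 (1.68), FN1 (1.49) and LAMA4 (1.33). All values are differences of log2 changes.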

How the results depend on the processing

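With the lane term (the replicate block), the 792 genes higher and 906 lower became 4 and 5 with no replicate block, and 0 and 0 with edgeR and no replicate block (added after seeing the data), which had 1242 genes at an unadjusted p under 0.05. Fitting the 4 U87 libraries alone gave 1948 and 2015 with the replicate block and 0 and 0 without it (1456 at an unadjusted p under 0.05). Without a trend of the prior variance there were 353 and 410. Leaving out 1 library gave 0 to 1861 higher and 0 to 1959 lower, 0 without any 1 U87 library and at least 1836 and 1939 without any 1 T98 library. Pseudocounts, filters, 3 other scalings, edgeR and DESeq2 with the lane term kept both counts within 1.5 times. The 16 and 60 genes that differed from T98 became 0 and 0 with no replicate block (356 at an unadjusted p under 0.05), 42 and 115 with edgeR and 162 and 254 with DESeq2 (both added after seeing the data), 7 and 12 without a filter on low values, 0 and 0 without a trend (1834 at an unadjusted p under 0.05), and 0 to 1194 and 0 to 1148 leaving out 1 library. The 170 fallen division genes became 3 with no replicate block. Of 170 named genes called in U87, 9 kept their call without the replicate block, 104 without a trend, 158 with no filter on low values and at least 166 of those tested in the other fits with a lane term and all U87 libraries; none reversed. The cause of these differences was not tested. Without 1 U87 library the U87 change rests on 1 lane, and without 1 T98 library it still rests on both U87 lanes. Depth limits few statements, since the named genes rest mostly on far more reads than the value minimum of 10; 2 libraries a group limit all.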
